A study of Mus musculus with 3 samples.

Results

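Immediate early response genes are switched on within minutes of a signal, from factors that are already present in the cell, and their transcripts are short-lived. Growth factor, cytokine and stress signals reach them through mitogen-activated protein (MAP) kinases, serum response factor and CREB, and many of their products are transcription factors that go on to control later genes. In spleen many of them are best known from stimulated lymphocytes and myeloid cells, and in liver from regeneration, injury and hormone signals. Klf2 is instead known for keeping T cells quiescent, and Jund is expressed more steadily in many tissues. The set examined here has 10 genes, namely Fos, Jun, Junb, Jund, Atf3, Egr1, Egr2, Klf2, Dusp1 and Zfp36, of 10698 genes named by the probes of the table. They were chosen by gene symbol in the platform annotation, which gave 12 probes. Fos and Dusp1 had 2 probes each and the other 8 genes had 1. None of the 12 probes lacked a measurement on any array.

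The study hybridised liver total RNA in the red dye (Cyanine-5) together with spleen total RNA in the green dye (Cyanine-3) on each of 3 oligonucleotide arrays. Both were purchased mouse RNAs, and the labels give no strain, age, sex, treatment or number of animals for either. Repeat arrays carried the same catalogue products and the same dye orientation, so SDs and p-values describe how far repeat arrays differed and may hold technical spread alone, and the effects of dye and of tissue on a probe cannot be told apart. Each value is a log2 ratio, where 1 is a 2-fold difference, and means are given ± SD over n = 3 arrays. In whole-tissue RNA, fewer cells of a type and less RNA per cell cannot be told apart.

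The labels do not state the direction of the ratio. Tissue markers make liver over spleen the likely one. The median ratio of the liver marker probes was 3.86, 4.11 and 3.72 on arrays 1, 2 and 3, and that of the spleen marker probes -1.40, -1.34 and -1.08. Of 10 spleen probes measured on all arrays, 7 passed the test described below toward spleen and 3 did not pass. Those 3 were Cd3e at 0.13 ± 0.09, a probe of Ptprc at 0.03 ± 0.13 and a probe of Coro1a at 0.24 ± 0.28. Another probe of Ptprc was at -4.33 ± 0.47 and another of Coro1a at -2.07 ± 0.42. Ahsg and Trf, which encode plasma proteins made by hepatocytes, averaged 3.76 ± 0.30 and 3.90 ± 0.20, while the other liver probe measured on all arrays, of Serpina1a, was at 0.34 ± 0.08. Albumin (Alb) had a reading only on array 2, of 6.16, and Apoa1 and Ttr had exact zeros throughout. An exact 0 was taken as no measurement.

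Of the 12 probes, 3 passed the test toward liver, 5 toward spleen and 4 did not pass. The test was limma's moderated test of the ratio against 0, with an adjusted p under 0.05 after Benjamini-Hochberg adjustment over 12259 probes. Across all of those probes 50.7% passed, 24.1% toward liver and 26.6% toward spleen, so passing the test is by itself no mark of these genes. At 2-fold or more, 2 of the 12 probes passed toward liver and 4 toward spleen. Among all tested probes 17.9% did so, 8.87% toward liver and 9.04% toward spleen. Dusp1 and Zfp36 were higher in liver than in spleen, and Klf2, Fos, Egr1 and Junb were lower in liver. For Jun, Jund, Atf3 and Egr2 no difference passed the test. The median of the 12 ratios was -0.33, against 0.02 over all probes. Because the genes and lists were chosen with earlier results of these data known, these counts describe them and set nothing apart.

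**Figure D1:**
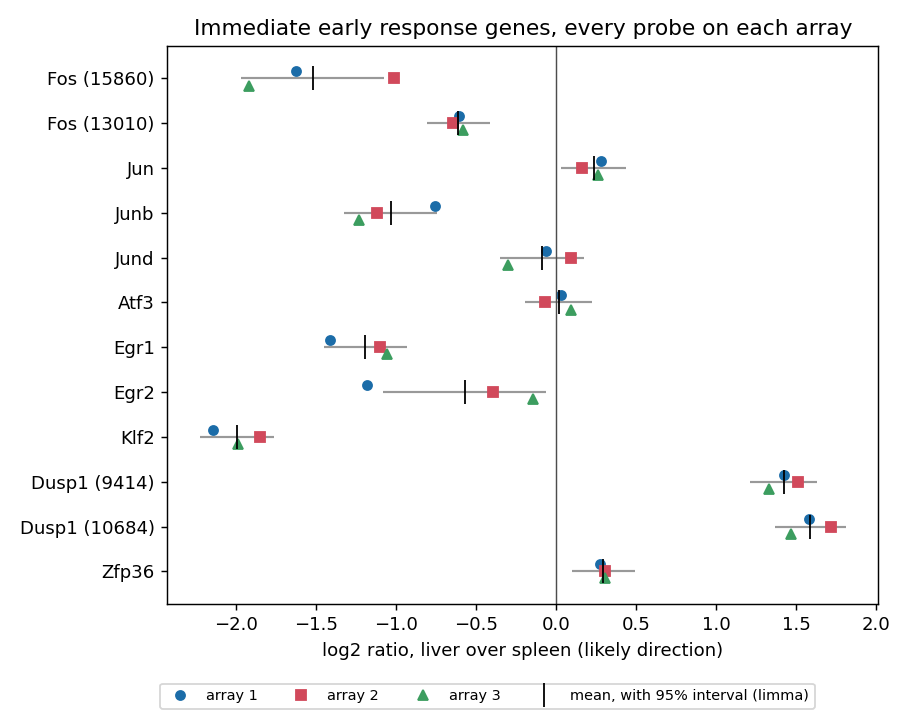
The log2 ratio of liver over spleen (x axis) is shown for each of the 12 probes (rows, with the probe number where a gene has 2), with 1 symbol per array, a black tick at the mean and a grey line for limma's 95% interval. Klf2, both Fos probes, Junb and Egr1 lie below 0 on every array, and both Dusp1 probes lie above 1.3 on every array.

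The upstream sequences of Klf2, Fos and Dusp1 are shown because these genes include the lowest and the highest ratios of the set. Each is the 150 bases before the gene's start in RefSeq (build GRCm38.p6), written 5′ to 3′ on the gene's strand. Capitals mark the matches described below.
Klf2, chr8:72318912-72319061, plus strand: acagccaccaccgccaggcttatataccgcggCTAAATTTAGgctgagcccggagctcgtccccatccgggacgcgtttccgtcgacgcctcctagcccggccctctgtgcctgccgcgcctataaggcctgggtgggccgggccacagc
Fos, chr12:85473740-85473889, plus strand: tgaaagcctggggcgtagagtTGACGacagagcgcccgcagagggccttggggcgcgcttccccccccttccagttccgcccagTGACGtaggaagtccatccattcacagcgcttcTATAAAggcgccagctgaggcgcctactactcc
Dusp1, chr17:26508473-26508622, minus strand: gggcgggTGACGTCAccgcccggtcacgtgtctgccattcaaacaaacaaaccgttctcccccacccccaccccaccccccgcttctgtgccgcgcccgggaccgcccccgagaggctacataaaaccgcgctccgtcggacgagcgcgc

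The promoter table held entries for 9 of the 10 genes, and motifs were searched on both strands in the 250 bases before each start. Egr1 had no entry, so its upstream sequence was not searched. The cAMP response element TGACGTCA, the full site of CREB and its relatives, was present in Dusp1 at -143 to -136 counted back from the start, and among all 32851 promoter entries 1.55% held it. Its core TGACG, which every full site also contains, was held by 17.8% of entries. The core lay in Fos at -129 to -125 and at -66 to -62, in Klf2 at -241 to -237, in Junb at -106 to -102 and in Atf3 at -7 to -3. Dusp1 held it at -191 to -187 besides the full site. In Egr2, 3 of the 5 entries held it too, but their windows overlap and share the same sites. Fos also had a TATAAA at -33 to -28, a motif held by 12.4% of entries. The GC box GGGCGG, held by 32.7% of entries, was found in Klf2, Fos, Dusp1, Jun, Atf3, Egr2 and Zfp36, and is not capitalised in the sequences. In Klf2 a MEF2 box, the site of a factor family that responds to the MAP kinase ERK5, lay at -118 to -109, and 0.508% of entries held one. Jun and Atf3 also held a MEF2 box, at -33 to -24 and -22 to -13. A CArG box, the site of serum response factor, was found in Zfp36 at -58 to -49, and 1.47% of all entries held one. It was also found in 4 of the 5 entries of Egr2, where the 3 with overlapping windows share the site. The AP-1 site TGAGTCA and the EGR site GCGTGGGCG, held by 4.46% and 0.536% of entries, had no match in the windows of the 9 genes searched. A match is a run of letters and does not show binding. The serum response element of Fos is known to lie further upstream than the window searched.

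Klf2 encodes a Krüppel-like zinc finger factor known for keeping T cells quiescent and for its response to blood flow in endothelium. Its probe read -2.14, -1.85 and -1.99 on arrays 1, 2 and 3. It was the lowest of the 12 probes on every array. The mean of -1.99 ± 0.15 is 3.98-fold lower in liver than in spleen, with a 95% interval of -2.22 to -1.76 (limma adjusted p = 4.18e-05). Only 1.84% of all tested probes had a lower mean.

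Fos is the founding member of the AP-1 factors, which bind DNA as pairs of leucine zipper proteins. Its probe 15860 read -1.63, -1.01 and -1.92 on arrays 1, 2 and 3, and its probe 13010 read -0.60, -0.64 and -0.58. Both were below 0 on all arrays, and probe 15860 was the lower of the pair on each. Probe 15860 averaged -1.52 ± 0.46, 2.86-fold lower in liver (limma adjusted p = 0.00118), and probe 13010 averaged -0.61 ± 0.03, 1.52-fold lower (limma adjusted p = 0.00168). On arrays 1, 2 and 3, the ratio of probe 13010 exceeded that of probe 15860 by 1.02, 0.37 and 1.34, a mean of 0.91 ± 0.49. The direction of Fos therefore did not depend on the probe, while its size did. With the probes averaged the gene stood at -1.06.

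The 3 Jun proteins are the partners of Fos in AP-1, and their transcripts gave unlike ratios. Junb, often the counterpart of Jun in growth control, read -0.75, -1.12 and -1.23 on arrays 1, 2 and 3. All of these lie below the readings of Jun and Jund on the same array. Its mean of -1.03 ± 0.25 is 2.04-fold lower in liver, with a 95% interval of -1.32 to -0.74 (limma adjusted p = 0.001). Jun, the main transactivating partner, read 0.28, 0.16 and 0.27, all slightly above 0, with a mean of 0.24 ± 0.07 that did not pass the test (limma adjusted p = 0.0561). Its 95% interval, like the others here not adjusted for the number of probes, ran from 0.03 to 0.44. Jun stood past the threshold, with adjusted p-values of 0.046 and 0.0467, when exact zeros were kept or probes were averaged by gene.

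Jund, which is expressed more steadily than the other Jun genes in many tissues, read -0.06, 0.10 and -0.30 on arrays 1, 2 and 3. The readings lie on both sides of 0, and without array 3 the mean changed sign, to 0.02. Over the 3 arrays it was -0.09 ± 0.20, with a 95% interval of -0.35 to 0.17. The Junb ratio minus the Jun ratio was -1.03, -1.28 and -1.49 on the 3 arrays, a mean of -1.27 ± 0.23. An exact sign-flip test over 3 arrays cannot go below a two-sided p of 0.25, which was the value here.

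Atf3 encodes a stress-induced leucine zipper factor of the CREB family that can pair with Jun proteins. It read 0.03, -0.07 and 0.09 on arrays 1, 2 and 3. The readings lie close to 0 on both sides, and the mean of 0.02 ± 0.08 was slightly below 0 without array 3 or with arrays centred. Its 95% interval was -0.19 to 0.22. Neither channel's intensity was used here, so a ratio near 0 does not show that the transcript was detected in either RNA.

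Egr1 and Egr2 encode zinc finger factors that bind GC-rich sites, and both are known from activated lymphocytes. Egr1 read -1.41, -1.10 and -1.06 on arrays 1, 2 and 3, all more than 2-fold lower in liver. Its mean was -1.19 ± 0.20, or 2.28-fold lower (limma adjusted p = 0.000355). Egr2 read -1.18, -0.39 and -0.14, always below 0 but most clearly on array 1. Its mean of -0.57 ± 0.54 did not pass (limma adjusted p = 0.0641), and its SD was the largest of the 12 probes. Without array 1 the Egr2 mean was -0.27 (limma adjusted p = 0.16), and without array 3 it was -0.78 (limma adjusted p = 0.033). Under the other alternatives its limma adjusted p-values ran from 0.054 to 0.146. The ratio of Egr1 was lower than that of Egr2 on each array, with a mean Egr1 minus Egr2 difference of -0.62 ± 0.35. The exact two-sided sign-flip p was 0.25, the lowest that 3 arrays allow, so this test cannot decide on a difference.

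Dusp1 and Zfp36 act to end the early response. Dusp1 encodes a nuclear phosphatase that inactivates MAP kinases, and glucocorticoids are known to induce it. Its probe 10684 read 1.58, 1.72 and 1.47 on arrays 1, 2 and 3, and its probe 9414 read 1.43, 1.51 and 1.33. They were the 2 highest of the 12 probes on every array. Probe 10684 averaged 1.59 ± 0.13, 3.01-fold higher in liver (limma adjusted p = 7.77e-05), and probe 9414 averaged 1.42 ± 0.09, 2.68-fold higher (limma adjusted p = 9.07e-05). The probes differed by 0.17 ± 0.04. This is less than the distance of either from any other gene of the set. Of all tested probes, 94.7% and 93.9% had a lower mean than these probes.

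Zfp36 encodes tristetraprolin, which binds AU-rich elements of cytokine transcripts and promotes their decay. It read 0.28, 0.31 and 0.31 on arrays 1, 2 and 3. The readings were nearly equal, with the smallest SD of the 12 probes. The mean of 0.30 ± 0.02 is 1.23-fold higher in liver (limma adjusted p = 0.0244). Without any 1 of the arrays the mean was 0.29 to 0.31 and did not pass, with adjusted p-values from 0.0767 to 0.092.

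**Figure D2:**
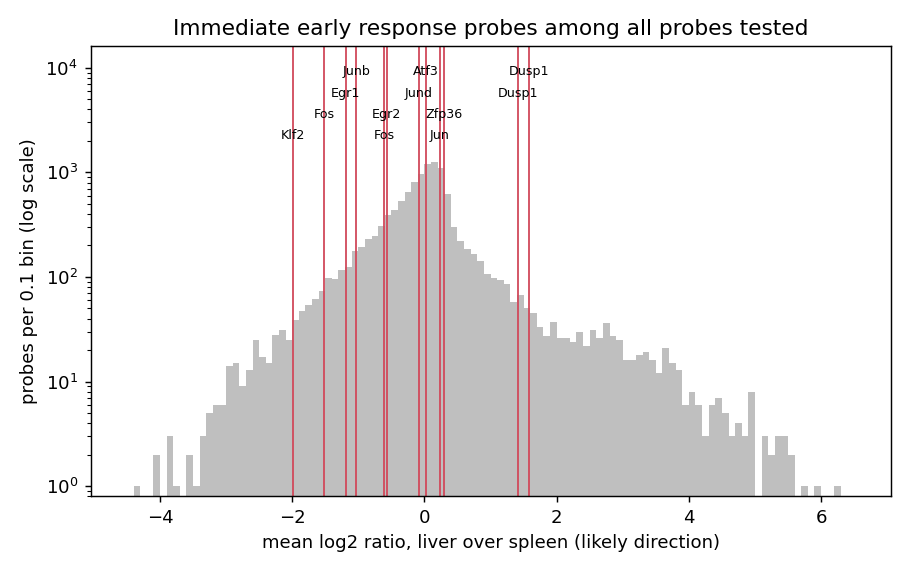
Grey bars count all 12259 tested probes by mean log2 ratio (bins of 0.1, log scale on the y axis), and red lines mark the 12 probes of the immediate early response genes. Klf2 lies toward the spleen side at -1.99, Dusp1 toward the liver side at 1.42 and 1.59, and the rest lie between.

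The SD of these probes over the arrays had a median of 0.14 and ran from 0.02 for Zfp36 to 0.54 for Egr2, and over all tested probes the median was 0.155. Fos probe 15860 had the next largest SD in the set after Egr2.

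**Figure D3:**
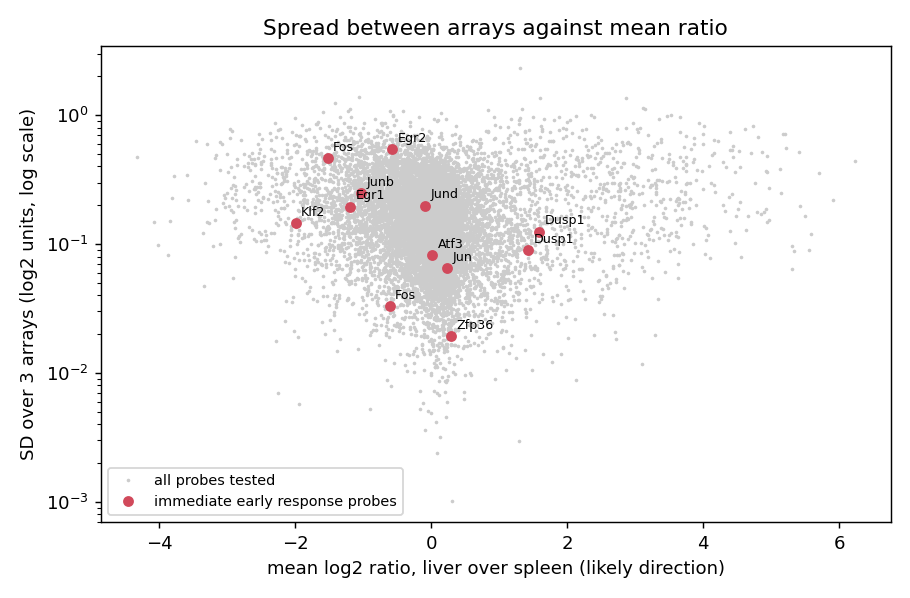
The SD over 3 arrays (y axis, log2 units on a log scale) is plotted against the mean log2 ratio for all tested probes (grey) and for the 12 probes of the set (red). Egr2 and Fos probe 15860 lie highest at 0.54 and 0.46, and Zfp36 lies lowest at 0.02.

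Markers of blood and vessel cells that are known to express these genes were measured on the same arrays. For comparison, 24.1% of all tested probes passed toward liver and 26.6% toward spleen. Of 7 probes of neutrophil and monocyte genes, covering 4 of 5 listed genes, 1 of S100a8 passed toward liver and 6 toward spleen, with a range of -3.45 to 0.52 and a median of -2.59. Among 8 T-cell probes, of 5 of 5 genes, none passed toward liver and 4 toward spleen, with a range of -3.57 to 0.16 and a median of -0.39. Of 6 endothelial probes, from 4 of 6 genes, 1 of Tek passed toward spleen at -0.66 ± 0.24, and the others lay between -0.01 and 0.23. A probe of Pecam1 read -0.38 and -0.28 on arrays 1 and 3 and had an exact 0 on array 2. The part of these cell types in the ratios of Klf2, Fos, Egr1 and Junb was not tested.

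Relatives of the 10 genes were taken from lists by family or role. The counts of every list below stand beside 24.1% of all tested probes passing toward liver and 26.6% toward spleen with all 3 arrays. Leaving out an array lowered the calls over all probes too. Toward liver they fell from 2952 to 2142, 2161 and 2430 without arrays 1, 2 and 3. Toward spleen they fell from 3267 to 2690, 2566 and 2917. Among AP-1 and CREB relatives, 2 of 13 probes (12 of 19 listed genes) passed toward liver and 4 toward spleen, with a median of -0.24. The lymphoid and dendritic cell factor Batf3 averaged -1.70 ± 0.21, and Jdp2, a repressor that pairs with Jun, -0.74 ± 0.28. One probe of Creb1, the cAMP-responsive factor, averaged -1.12 ± 0.17, and the other -0.27 ± 0.25, not past the test. The small Maf factor Mafg was at 0.76 ± 0.10 and Atf5, a stress-responsive factor abundant in liver, at 3.11 ± 0.01, or 3.11, 3.09 and 3.12 on the 3 arrays. Probes of Fosl2 and Maff were measured on 2 arrays each and read between -0.11 and 0.27. Both Atf2 probes read toward spleen on array 2, at -1.74 and -1.50, and had exact zeros on arrays 1 and 3.

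In the EGR, NR4A and KLF families, 7 of 20 probes (18 of 19 listed genes) passed toward liver and 4 toward spleen, with a median of 0.09. Without array 1 the count toward liver was 4, where calls toward liver over all probes fell from 2952 to 2142. Several Krüppel-like factors lay on the other side of 0 from Klf2. Klf15, a regulator of fasting metabolism, averaged 3.06 ± 0.24, Klf5 2.06 ± 0.17 and the glucocorticoid-responsive Klf9 1.37 ± 0.28. The erythroid factor Klf1 was at -3.04 ± 0.24 and Klf4 at -0.79 ± 0.45. The Klf2 ratio minus the Klf15 ratio was -5.36, -5.04 and -4.76 on arrays 1, 2 and 3. Nr4a1, an orphan nuclear receptor induced by antigen receptor signals, averaged -1.06 ± 0.15. Egr3 at 0.09 ± 0.05 did not pass and Egr4 at 0.41 ± 0.26 passed toward liver, so the EGR genes did not share a direction. Among genes known as Klf2 targets, 1 of 6 probes (4 of 6 listed genes) passed toward liver and 2 toward spleen, with 1 toward spleen without array 1 or array 2. The homing integrin chain Itgb7 averaged -0.98 ± 0.42 and a probe of endothelial Nos3 -0.37 ± 0.27, the other Nos3 probe being at -0.20 ± 0.25 and not past the test. The lymphocyte egress receptor S1pr1 read 1.01 ± 0.36 on a probe past the test and -0.08 ± 0.27 on the other. Thbd, the thrombomodulin gene of endothelium, read -1.29 and -1.49 on arrays 1 and 2 and had an exact 0 on array 3, so it was not among the probes tested.

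Among other early response genes, 3 of 33 probes (22 of 28 listed genes) passed toward liver and 13 toward spleen, with a median of -0.13. Over all tested probes the shares were 24.1% and 26.6%. Some genes count more than once among the 13. With probes averaged by gene, 9 of the 22 genes passed toward spleen, where 2690 of all 9803 genes did. The growth regulator Myc averaged -1.94 ± 0.26, Ier5 -1.83 ± 0.07, and the survival factor Mcl1 -1.34 ± 0.10 and -0.84 ± 0.07 on its probes. Toward liver, a probe of the growth arrest gene Gadd45g averaged 1.39 ± 0.76, from readings of 1.81, 0.51 and 1.84, while its other probe was at 0.14 ± 0.14. The polo-like kinase Plk3 was at 1.12 ± 0.27, and Plk2 at 0.46 ± 0.17 on one probe and 0.02 ± 0.09 on the other. Ier2, also known as an immediate early gene, was at 0.05 ± 0.12 and did not pass. Btg1 read 0.11 and 0.28 on arrays 2 and 3 and had an exact 0 on array 1.

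Of 16 probes of the relatives of Dusp1 and Zfp36 (11 of 18 listed genes), 2 passed toward liver and 4 toward spleen, with a median of -0.02. Leaving out array 1 or array 2 took the count toward liver to 1. The counts toward spleen were 1, 2 and 2 without arrays 1, 2 and 3. Dusp2, a MAP kinase phosphatase of activated leukocytes, averaged -2.13 ± 0.35 on probe 1391, -0.32 ± 0.12 on probe 6861 and -0.13 ± 0.78 on probe 3404, where the last did not pass. On all arrays each Dusp1 probe had a higher ratio than each Dusp2 probe, by a mean of 1.55 to 3.72. Dusp14 averaged -0.39 ± 0.04 on one probe and 0.08 ± 0.01 on the other, Dusp22 0.53 ± 0.20 and Dusp19 0.25 ± 0.08. The Zfp36 relatives Zfp36l1, at -0.05 ± 0.06 and 0.07 ± 0.19, and Zfp36l2, at 0.00 ± 0.17, did not pass.

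Transcripts known as Zfp36 targets (all 11 listed genes) passed toward liver for 2 of 20 probes and toward spleen for 6, with a median of -0.10. Leaving out array 1 or array 2 took the count toward liver to 1, and without array 1 the count toward spleen was 3. The cytokine Il1b accounted for 3 of the 6, at -1.65 ± 0.15, -1.33 ± 0.39 and -1.08 ± 0.30. Of the probes of Tnf, the best known target, those at -0.30 ± 0.16 and -0.27 ± 0.11 passed and the one at -0.15 ± 0.06 did not. Cxcl1, a neutrophil chemokine, averaged 1.18 ± 0.94 on one probe, from readings of 1.10, 2.15 and 0.28, and -0.03 ± 0.17 on the other. A probe of Il2 was at 0.62 ± 0.11 and the other at -0.04 ± 0.10.

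Of 22 probes of upstream kinases and serum response factors (13 of 23 listed genes), 4 passed toward liver, 2 toward spleen and 16 did not pass, where 24.1% of all tested probes passed toward liver and 26.6% toward spleen. The median was 0.04. Serum response factor (Srf) averaged -1.01 ± 0.37, and its partner Elk4 was at -1.26 ± 0.09 on one probe and 0.04 ± 0.12 on the other. Map2k2, an upstream kinase of ERK, was at 0.91 ± 0.08 and 0.83 ± 0.19 on its probes. Map2k6, an upstream kinase of p38, was at 0.55 ± 0.12 and -0.09 ± 0.27. The JNK gene Mapk8, whose product phosphorylates Jun, was at -0.23 ± 0.12 and -0.12 ± 0.01 and did not pass. Among probes not measured on all arrays, one of Mapkapk2 read -0.06 and 0.13 on arrays 1 and 2, one of Map2k6 read -0.23 on array 2, and one of Mapk14 had exact zeros throughout.

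**Figure D4:**
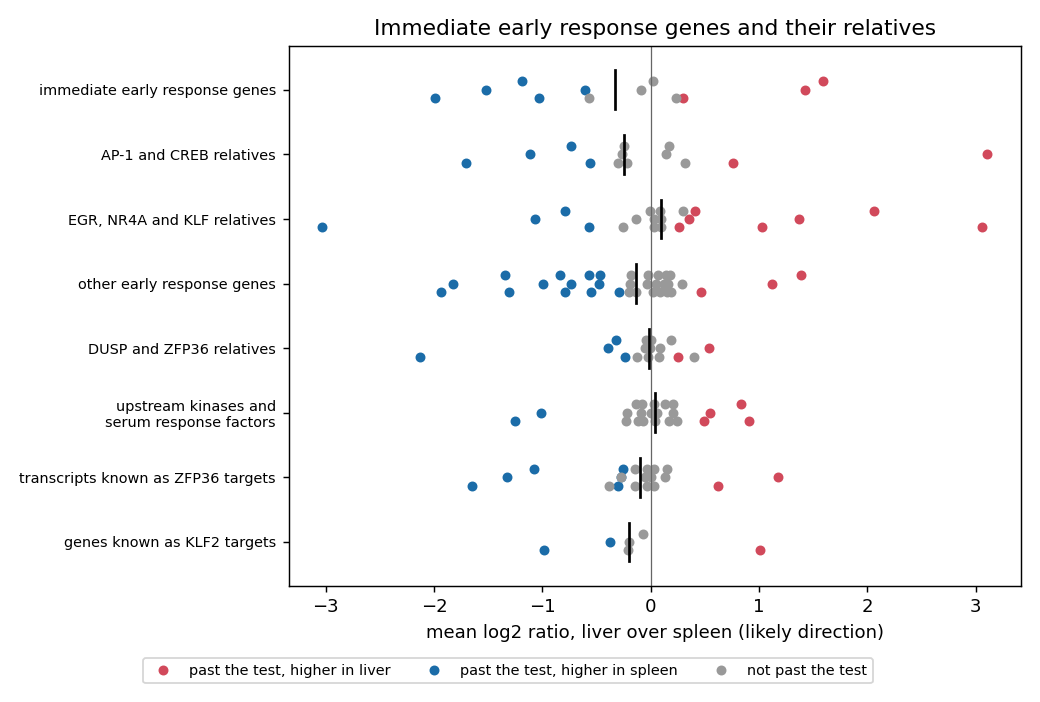
Each point is the mean log2 ratio (x axis) of a probe in the set (top row) or in a list of related genes (other rows), coloured by the outcome of limma's test, with a black line at the row's median. Each row holds probes on both sides of 0, and the row medians lie between -0.33 and 0.09.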

How the data were processed

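The deposited table gives, per probe and array, a log2 ratio of the 2 channels, whose base and sign the labels do not state. The base was read from the highest value on each array, 6.64, the log2 of 100. Background correction, dye normalization, filters and scanner software by the authors are not stated in the labels used here. Of 16281 probes, 13738 had 1 symbol in the platform annotation. For 13694 the Entrez number was found in RefSeq and no symbol differed.

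Exact zeros (1414, 1098 and 1137 on arrays 1, 2 and 3) were taken as no measurement. Probes with 1 symbol and values on all 3 arrays were fitted with an intercept only in limma 3.58.1 (R 4.3.3), followed by eBayes with 3.48 prior degrees of freedom. The test script was tested on simulated data. Arrays have no read depth, and the small number of them limits precision.

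The genes, lists and tests were chosen with earlier results of these data known. Named were all 10 genes with every probe, and from each list the 3 largest means past the test in each direction with 1 sign on all arrays, with all probes of those genes. Egr3, Egr4, Ier2, Tnf, Mapk8, Zfp36l1, Zfp36l2, Fosl2, Maff, Atf2, Thbd, Btg1, Mapkapk2 and Mapk14 were chosen after their values were seen. Related probes of a gene family may share signal, which was not resolved here. Promoter sequences are from RefSeq, GRCm38.p6. Alternatives were probes averaged by gene, arrays centred or scaled, zeros kept, probes measured on at least 2 arrays, robust variances, and each array left out.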

Additional observations from a re-analysis of the deposited data

How the results depend on the processing

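Of the probe counts of the 10 genes, each alternative by probe gave 2 to 4 toward liver and 5 to 6 toward spleen. With probes averaged by gene, 3 genes passed toward liver and 4 toward spleen. The calls of Klf2, Fos, Egr1, Junb and Dusp1 held under every alternative run. Zfp36 did not pass when any 1 array was left out. Atf3 changed sign with arrays centred (-0.0068). Leaving out 1 array, Atf3 ranged from -0.020 to 0.061, with the lowest without array 3, and Jund from -0.18 to 0.020, with the highest without array 3. Each ratio already sets liver against spleen on the same array. The arrays form 1 group, so no further pairing of arrays was possible. With any 1 array left out, calls over all probes ranged from 2142 to 2430 toward liver and 2566 to 2917 toward spleen. With all 3 arrays they were 2952 and 3267. In the lists, with any 1 array left out, DUSP and ZFP36 relatives ranged from 1 to 2 in either direction, EGR, NR4A and KLF relatives from 4 to 5 toward liver, Klf2 targets from 1 to 3 toward spleen, and Zfp36 targets from 1 to 2 toward liver and 3 to 4 toward spleen. Averaging by gene counts a gene with several probes once. Over all 9803 genes it gave 2484 calls toward liver and 2690 toward spleen. In the lists it gave 1 call toward spleen for 11 DUSP and ZFP36 relatives and 1 for 4 Klf2 targets. The 11 Zfp36 targets had 1 toward liver and 2 toward spleen, and 13 upstream kinases and serum response factors had 2 toward liver. The 12 AP-1 and CREB relatives had 5 toward spleen, against 4 by probe. Centring, scaling or testing probes on at least 2 arrays left 1 DUSP or ZFP36 probe toward liver. Robust variances left 1 Klf2 target toward spleen, and keeping zeros left 1 Klf2 target toward spleen and 1 Zfp36 target toward liver. The cause was not tested. The limits are the lack of a dye swap, of intensities and of independent animals.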
